A study of Mus musculus with 12 samples.

Results

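The glutathione transferases and the UDP-glucuronosyltransferases of the mouse liver are described here gene by gene. The genes were taken by symbol from the table of read counts: the cytosolic glutathione transferases of the alpha, kappa, mu, omega, pi, theta and zeta classes, the microsomal ones, and the glucuronosyltransferases of the 1a, 2a, 2b and 3a subfamilies. The rule found 45 genes among the 24527 symbols in the table, 25 glutathione transferases and 20 glucuronosyltransferases. The rule uses symbols alone, but it was chosen with earlier results of these data known. Of the 45, 39 passed the filter on low counts and were tested among 13204 genes, 22 of the first family and 17 of the second.

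Messenger RNA was measured by sequencing poly-A selected RNA from the livers of 12 mice. All were 39 weeks old and all were offspring of CF1 females and B6SJL males. Conception was natural or by in vitro fertilization (IVF), the joining of egg and sperm in culture, and both modes were represented by females and males. This gave 4 groups of 3 libraries: natural females, natural males, IVF females and IVF males. The question, by the title, was whether IVF alters metabolism and liver pathways in adults differently in males and females. One number in the sample titles is shared by IVF female replicate 1 and IVF male replicate 2, and the labels do not say what it marks, a litter or otherwise. They name no litter or batch for any sample, so the p-values below measure the spread between these 12 samples, which may in part be technical. Animals are named by group and a replicate number that has no other meaning.

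Both families act in the second phase of detoxification, in which a polar group is joined to a reactive or fat-soluble compound. Glutathione transferases add the tripeptide glutathione to electrophiles such as epoxides, quinones and products of lipid peroxidation. Glucuronosyltransferases sit in the membrane of the endoplasmic reticulum and move glucuronic acid from its UDP-activated form to bilirubin, steroids, bile acids and drugs, and the conjugates then leave the hepatocyte through transporters to bile or blood. Both families are large and arranged in gene clusters, and several of their genes are known to be transcribed at different rates in the livers of male and female rodents.

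Total counts ranged from 6826534 to 27832271 per library, and the 45 genes took between 0.875% and 1.43% of them. The lowest totals belonged to IVF female replicate 1 and natural female replicate 2, at 6826534 and 8056230 counts, which are called the shallow libraries. Xist exceeded the sum of 4 Y-linked genes in libraries labelled female, and the reverse held in those labelled male, in 12 of 12 cases. Levels are given as CPM, read counts scaled for sequencing depth and by edgeR's trimmed mean factors (TMM). Where a gene had 0 counts, a limit of 3 counts, which covers counting error only, put its level below 0.119 CPM in the deepest library and 0.445 CPM in the shallowest. Marker genes of hepatocytes, such as albumin, summed to between 68200 and 104042 CPM in every library, while 5 kidney markers together never exceeded 0.125 CPM. Other lists from outside the liver were not as low. Over the 12 livers pancreas markers summed to 8.34 to 41.6 CPM and gut epithelium markers to 28.2 to 92.3 CPM. In bulk tissue, fewer cells of a type and less RNA per cell cannot be told apart.

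The largest and steadiest sex difference of both families was that of Gstp1, in the pi class of glutathione transferases. The 3 genes of this class lie side by side on the minus strand of chromosome 19 (GRCm38): Gstp1 from 4035407 to 4037985, Gstp2 from 4040285 to 4046023 and Gstp3 from 4057477 to 4059569. The coding sequences of Gstp1 and Gstp2 were 98.1% identical over 630 aligned bases, and Gstp3 was 72.8% identical to Gstp1. The stretches before the RefSeq start sites of Gstp1 and Gstp2 are printed here because these were the transferases that differed most between the sexes and moved together, while Gstp3 did not. Each runs 5′ to 3′ from 150 to 44 bases before the RefSeq start site (RefSeq, GRCm38.p6), Gstp1 at chr19:4037956-4038062 and Gstp2 at chr19:4042265-4042371, both on the minus strand. The gene spans above, from the GENCODE annotation, begin farther upstream than these RefSeq starts. The whole Gstp2 stretch lies within its gene span. So does the end of the Gstp1 stretch, with its GC box and most of its AP-1 match. Capitals mark matches to the AP-1 motif TGANTCA and to the GC box GGGCGG.
Gstp1: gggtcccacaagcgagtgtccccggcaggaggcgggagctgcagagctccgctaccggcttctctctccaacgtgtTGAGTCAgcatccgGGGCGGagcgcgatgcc
Gstp2: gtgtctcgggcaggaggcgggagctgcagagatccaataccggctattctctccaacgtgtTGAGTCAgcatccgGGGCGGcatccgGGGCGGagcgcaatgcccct
In both, the AP-1 match preceded a GC box by the same short spacer, and Gstp2 carried a second GC box. The last 150 bases before the start aligned with 70.3% identity between Gstp1 and Gstp2, against 47.9% and 47.3% for Gstp3 with either of them, and Gstp3 held neither motif within 250 bases. RefSeq gave a promoter for 41 of the 45 genes, and several for some of them. A gene was counted if any of its promoters matched, while the shares of all below are of single promoters, so the units differ. Searching the 250 bases before each start on both strands, the AP-1 motif was found in 10 of the 41 and in 6.75% of all 32851 promoters of the table, and the GC box in 13 of the 41 and in 32.7% of all. Other matches were the antioxidant response element core TGACNNNGC in 4 genes (Gsta3, Gstm5, Gstm7 and Mgst1) and 10.2% of all promoters, and the STAT5 motif TTCNNNGAA in 3 genes (Gsta1, Gstm6 and Ugt1a6a) and 7.02% of all. The TATA box TATAAA, searched on the sense strand, was found in 5 genes and 7.59% of all promoters. In Ugt1a6a the STAT5 and AP-1 matches overlap. The AP-1 motif was added to the search after these sequences had been seen, and a match describes letters, not binding.

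Gstp1, which conjugates a wide range of electrophiles and whose rat homolog is a known marker of preneoplastic liver, had 146, 103 and 143 CPM in natural females and 118, 126 and 125 CPM in IVF females. In males it had 1475, 756 and 2205 CPM after natural conception and 1630, 1005 and 1730 CPM after IVF. Every male liver lay above every female liver, and the males spread far more than the females. The level was 11.3-fold higher in natural males, a log2 fold change of 3.50 ± 0.38 (SE), with an adjusted p of 0.000367 by edgeR's quasi-likelihood test with Benjamini-Hochberg adjustment. Among IVF animals it was 11.8-fold higher, 3.57 ± 0.38 (SE) on the log2 scale, with an adjusted p of 0.000341 in the same edgeR test. Both calls were kept in 12 of 12 fits that left out 1 library and in all 10 other alternatives.

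Gstp2, its near-identical neighbour, stood at 29.6, 66.6 and 49.1 CPM in natural females and 74.5, 24.9 and 24.0 CPM in IVF females. It reached 310, 178 and 512 CPM in natural males and 330, 220 and 417 CPM in IVF males. The sexes did not overlap, and the same males that were low or high for Gstp1 were low or high for Gstp2, while among females the highest values of Gstp2 were those of the shallow libraries. The log2 fold change was 2.79 ± 0.53 (SE) in natural animals and 2.98 ± 0.54 (SE) in IVF animals, with adjusted p of 0.0222 and 0.0133 by edgeR's quasi-likelihood test with Benjamini-Hochberg adjustment. Leaving out the shallow IVF female replicate 1 raised the fold in IVF animals from 7.90 to 12.9. The call was lost in 4 of 12 fits without 1 library in natural animals (each of natural female 1 and 3 and natural male 1 and 3) and in 3 of 12 in IVF animals (IVF female replicate 2 or 3, IVF male replicate 3). Because reads from so similar a pair may have been assigned to either gene, their counts were also summed before the fit. The sum differed by 3.34 ± 0.37 (SE) on the log2 scale in natural animals and by 3.44 ± 0.37 (SE) in IVF animals, with adjusted p of 0.000477 and 0.000425 in edgeR's Benjamini-Hochberg adjusted test.

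**Figure D1:**
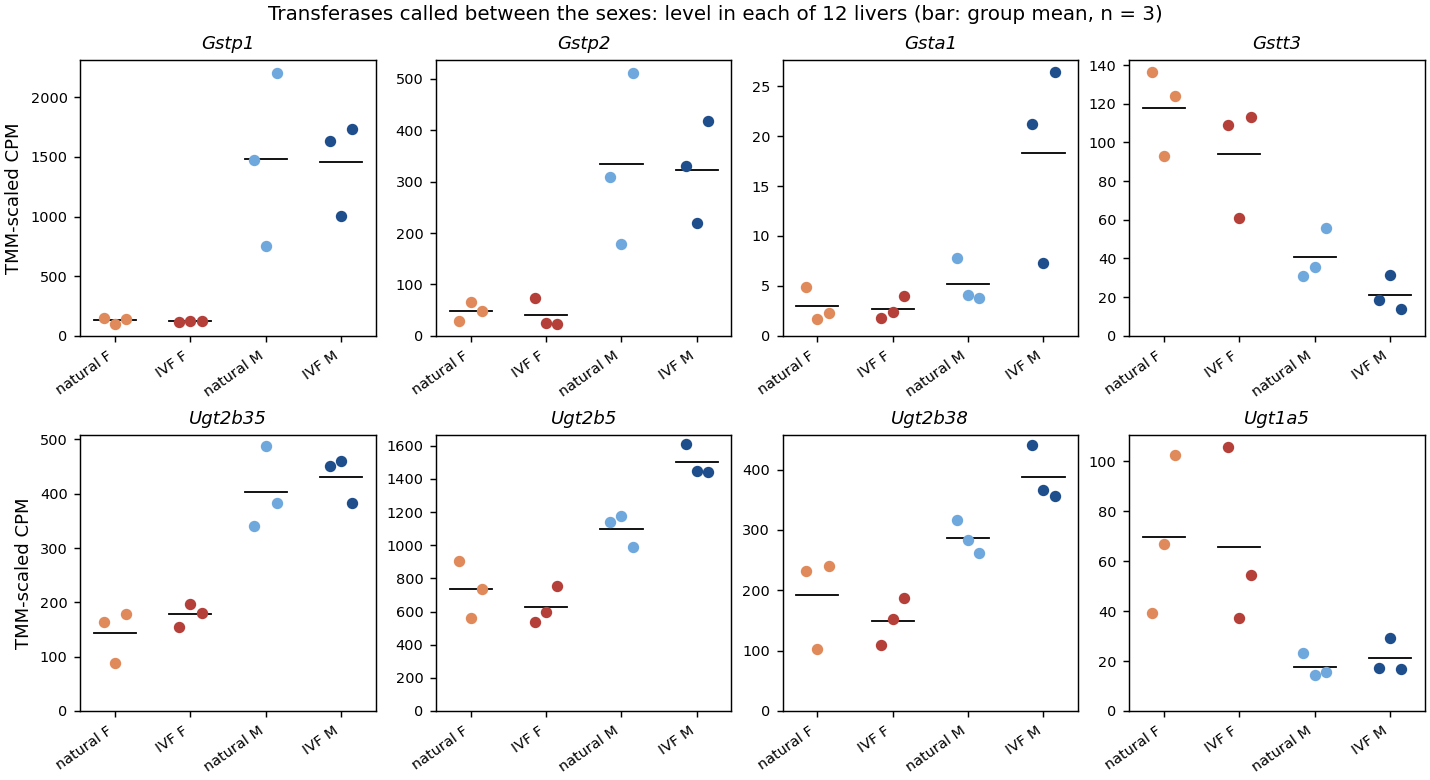
Level in TMM-scaled CPM (linear axes from 0) of the 8 transferase genes called between the sexes, with 1 point for each of the 12 livers and a bar at each group mean (n = 3). For Gstp1 every male lies above every female, while the 3 IVF males of Gsta1 spread from 7.33 to 26.4 CPM.

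Gstp3, the third gene of the cluster, did not follow the other pair. Natural females had 346, 11.4 and 370 CPM, IVF females 16.5, 14.3 and 330 CPM, natural males 307, 248 and 8.02 CPM and IVF males 307, 378 and 6.36 CPM. Each of the 4 groups thus held at least 1 liver at or below 16.5 CPM and at least 1 at or above 248 CPM, and no liver lay between. Within the groups Gstp3 varied with an SD of 2.85 on the log2 scale, the second-largest of the 13204 genes tested, whose median was 0.305. The counts behind these levels were at most 343 in the 5 livers at the low level and at least 4469 in the 7 at the high level, so that counting error is small beside the gap. Low values occurred in both shallow libraries and in 3 deeper ones. The nearest genes on either side of the 3-gene cluster that exceeded a median of 10 CPM did not share the pattern: Ndufv1, a subunit of respiratory complex I, ranged from 58.8 to 140 CPM over the 12 livers, and Cdk2ap2, a regulator of the cell cycle, from 14.3 to 46.0 CPM. No sex or IVF comparison called Gstp3 (edgeR's quasi-likelihood test with Benjamini-Hochberg adjustment, adjusted p of 0.930 and 0.840 between the sexes, and 1 in both IVF comparisons). The SE of its sex difference was 1.58 on the log2 scale in natural and 1.59 in IVF animals.

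**Figure D2:**
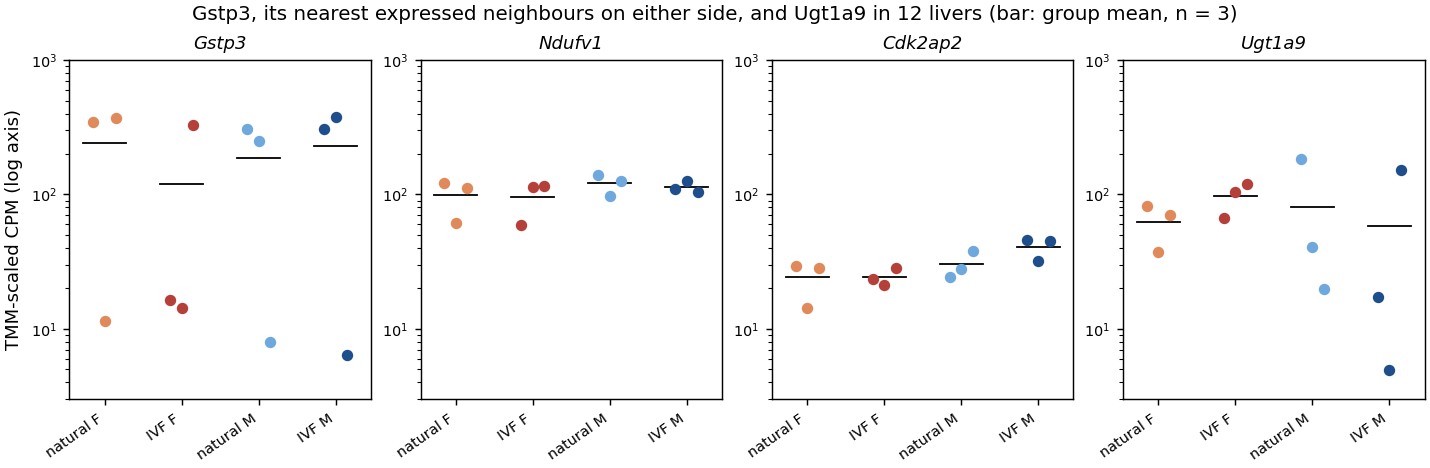
Level in TMM-scaled CPM (log axes) of Gstp3, of the nearest genes on either side of the Gstp cluster above a median of 10 CPM, and of Ugt1a9, with 1 point per liver and a bar at each group mean (n = 3). Gstp3 splits between 6.36 to 16.5 CPM and 248 to 378 CPM in every group, the genes beside the cluster do not, and Ugt1a9 spreads widely among males.

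Between the sexes in natural animals, 4 of the 39 tested transferases were called, or 10.3%, against 1.77% of all genes tested. Of these 3 were higher in males, a call that 0.894% of all genes received, and 1 was lower in males, a call that 0.879% of all genes received. The higher ones were Gstp1, Gstp2 and Ugt2b35, and the lower one was Ugt1a5. The libraries of both sexes did not overlap for 15 of the 39, or 38.5%, against 20% of all genes, with 10 higher and 5 lower in males. Fits without 1 library called 2 to 5 members, and DESeq2's Wald test called 7, these 4 with Gsto1, Gstt3 and Ugt2b1. Gstt3, at -1.53 ± 0.35 (SE), and Gsto1, at -0.77 ± 0.18 (SE), stood just outside the threshold, with adjusted p of 0.0512 and 0.0538 by edgeR's quasi-likelihood test with Benjamini-Hochberg adjustment.

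Among IVF animals 7 of the 39 were called, or 17.9%, against 2.19% of all genes. The 6 higher in males, where all genes gave 0.909%, were Gstp1, Gstp2, Gsta1, Ugt2b5, Ugt2b35 and Ugt2b38, and the 1 lower in males, where all genes gave 1.28%, was Gstt3. The sexes did not overlap for 18 of the 39, or 46.2%, against 21.8% of all genes, with 13 higher and 5 lower in males. Fits without 1 library called 2 to 8 members, and DESeq2's Wald test called 12, these 7 with Gsta2, Gstm2, Gstt1, Ugt1a5 and Ugt2b1. The 2 sex comparisons share no library, but both came from 1 model with 1 estimate of the spread over all 12 libraries. Their calls are therefore not independent. Gstp1, Gstp2 and Ugt2b35 were called in both, or 7.69% of the 39, against 1.12% of all genes, and 31 of the 39, or 79.5%, had the same sign in both, against 71.9% of all genes. With TMM scaling, the sexes did not overlap and differed in the same direction in both modes for 12 genes, or 30.8%, against 7.92% of all genes. Gstp1, Gstp2, Mgst1, Ugt1a6a, Ugt1a6b, Ugt2b1, Ugt2b5, Ugt2b35, Ugt2b36 and Ugt2b38 were higher in males, and Gstt3 and Ugt1a5 were lower. The median log2 fold change over the 39 was 0.057 in natural and -0.052 in IVF animals, beside -0.024 and 0.0077 over all genes, with 21 and 19 of the 39 above 0.

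The balance of higher and lower genes depended on how libraries were scaled. By library size alone the median of all genes fell to -0.34 in natural and to -0.10 in IVF animals, and in natural animals 3 members then lay wholly higher and 10 wholly lower in males, where 2.96% and 25.6% of all genes did so. The 3 were Gstp1, Gstp2 and Ugt2b35, the only members wholly higher in males in both modes by library size alone. In IVF animals 12 members then lay wholly higher and 7 wholly lower in males, where 6.30% and 14.2% of all genes did so. The 7 were Gstm2, Gstm7, Gsto1, Gstt1, Gstt3, Mgst3 and Ugt1a5, all wholly lower in natural males too. Under that scaling 6 members were called in natural animals, the 4 above and Gstt3 and Gsto1, both lower in males. The summed markers of cell types moved with sex too, although in natural animals the hepatocyte, stellate cell and Kupffer cell sums overlapped between the sexes. Hepatocyte markers (8 of 8 tested) summed to 95176 to 104042 CPM in IVF females and 68200 to 75466 CPM in IVF males, and to 90896 to 97452 CPM in natural females and 79966 to 92098 CPM in natural males. Stellate cell and fibroblast markers (8 of 8 tested) summed to 313 to 360 CPM in IVF females and 190 to 267 CPM in IVF males, and to 263 to 307 CPM in natural females and 206 to 279 CPM in natural males. Sinusoidal endothelial markers (8 of 8 tested) summed to 254 to 314 CPM in females and 198 to 252 CPM in males. The adipocyte list summed to 1196 to 2843 CPM in females and 4709 to 6946 CPM in males, nearly all of it Car3, a carbonic anhydrase that hepatocytes also express; without Car3 the list summed to 2.48 to 7.34 CPM over the 12 livers and Lep, the gene for leptin, was at 0 in every library. Kupffer cell and macrophage markers (8 of 8 tested) summed to 308 to 448 CPM in IVF females and 144 to 230 CPM in IVF males, and to 298 to 396 CPM in natural females and 269 to 305 CPM in natural males. Pancreas markers (1 of 6 tested) summed to 10.2 to 21.1 CPM in IVF females and 24.6 to 41.6 CPM in IVF males. Erythroid markers (2 of 6 tested) summed to 6.61 to 20.5 CPM in IVF females and 23.6 to 175 CPM in IVF males. The pancreas and erythroid sums overlapped between the sexes in natural animals. The part of these cell type markers in the results was not tested.

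**Figure D3:**
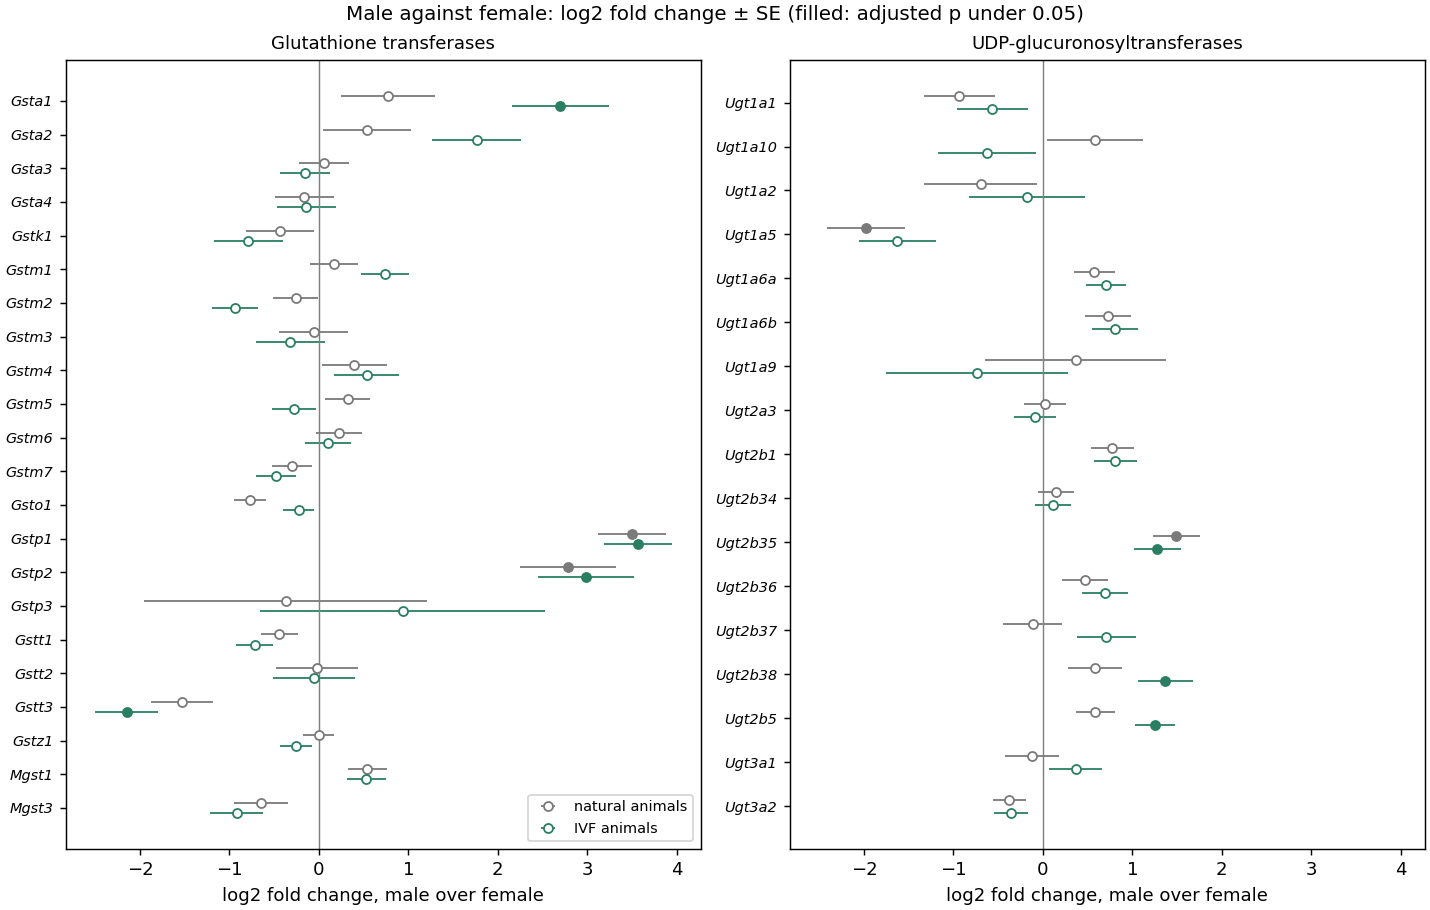
Log2 fold change of males over females with its SE, for the 22 glutathione transferases (left) and 17 glucuronosyltransferases (right) tested, in natural animals (grey) and IVF animals (green), with filled points at an adjusted p under 0.05. Gstp1 and Gstp2 lie farthest to the right in both modes of conception, and most Ugt2b genes lie to the right of 0.

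The theta class lay the other way from the pi class, higher in females. Gstt3, a theta-class enzyme, had 136, 93.1 and 124 CPM in natural females and 109, 60.9 and 113 CPM in IVF females. It had 31.1, 35.4 and 55.6 CPM in natural males and 18.4, 31.4 and 13.8 CPM in IVF males. Every female lay above every male, although the lowest female and the highest male were only 60.9 and 55.6 CPM. The level in IVF males was 4.44-fold lower than in IVF females, -2.15 ± 0.36 (SE) on the log2 scale, with an adjusted p of 0.00776 by edgeR's quasi-likelihood test with Benjamini-Hochberg adjustment. This call was kept in all 12 fits without 1 library. Of its exonic bases 13.6% overlap a predicted gene, Gm20441, and the use of strand in counting was not given in the sources used here. Gstt1, the class's most abundant member per kilobase of exon at a mean of 79.5 CPM per kb, had 138 ± 28.7 CPM (SD, n = 3) in natural females and 101 ± 10.6 CPM (SD, n = 3) in natural males, which overlapped. In IVF animals it did not overlap, at 156, 147 and 157 CPM in females and 74.6, 116 and 90.1 CPM in males, -0.72 ± 0.21 (SE) on the log2 scale. That difference missed the threshold in edgeR's quasi-likelihood test with Benjamini-Hochberg adjustment (adjusted p of 0.116) and was called by DESeq2 and by edgeR with library size alone. Gstt2 ranged from 20.6 to 88.4 CPM with the sexes overlapping. Summed over the class, males had 0.636 times the female level in natural and 0.550 times in IVF animals, without overlap in either.

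Within the alpha class, abundance and sex difference belonged to different genes. Gsta3, an enzyme known for detoxifying the epoxide of aflatoxin, held most of the class's counts, at 539 to 1227 CPM, and overlapped between the sexes. Gsta1 was low in females, at 4.89, 1.68 and 2.26 CPM after natural conception and 1.78, 2.37 and 4.02 CPM after IVF. Natural males had 7.77, 4.04 and 3.79 CPM, within reach of the females, and IVF males had 21.2, 7.33 and 26.4 CPM, above every other liver but one: natural male replicate 1, at 7.77 CPM, exceeded the lowest IVF male. The sex difference of Gsta1 in IVF animals was 6.50-fold, 2.70 ± 0.55 (SE) on the log2 scale, with an adjusted p of 0.0242 by edgeR's quasi-likelihood test with Benjamini-Hochberg adjustment. It was lost in 4 of 12 fits without 1 library (each of IVF female 1 and 2 and IVF male 1 and 3), in the fit to only the 6 IVF libraries, and without both shallow libraries, where the adjusted p was 0.0601. Gsta2, with a coding sequence 97.6% identical to that of Gsta1, ran alongside it at 31.4, 18.3 and 39.4 CPM in IVF males and 4.17 to 15.4 CPM in the other 9 livers. When the counts of both were summed, the difference in IVF animals was 2.06 ± 0.51 (SE) with an adjusted p of 0.0682 in edgeR's Benjamini-Hochberg adjusted test, and the call was lost. Gsta4, which prefers the lipid peroxidation product 4-hydroxynonenal, ranged from 33.8 to 80.9 CPM with no call.

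The mu class, encoded by a row of 7 genes on chromosome 3, gave no call in edgeR's quasi-likelihood test with TMM scaling. Its leading gene was Gstm1, at a mean of 691 CPM per kb of annotated exon, by that measure the second-highest of all members after the microsomal Mgst1. Gstm1 had 768, 734.4 and 939 CPM in natural females, 862, 1041 and 844 CPM in natural males, 1170, 699 and 769 CPM in IVF females and 999, 1686 and 1705 CPM in IVF males. The groups overlapped, and the IVF males held the highest values. Gstm2 lay lower in IVF males, at 42.7, 33.9 and 30.4 CPM, than in IVF females, at 88.0, 59.1 and 58.6 CPM, without overlap. The difference, -0.94 ± 0.25 (SE) on the log2 scale, had an adjusted p of 0.0921 in edgeR's quasi-likelihood test with Benjamini-Hochberg adjustment, and was called by DESeq2 and by edgeR with library size alone. The other mu genes, Gstm3 to Gstm7, had means between 7.09 CPM per kb for Gstm5 and 37.1 CPM per kb for Gstm6 over the 12 livers.

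Mgst1, a trimeric enzyme of the endoplasmic reticulum and the outer mitochondrial membrane, was the most abundant member per kilobase of exon, at a mean of 945 CPM per kb. It had 1776, 1561 and 1167 CPM in natural females and 1434, 1426 and 1951 CPM in IVF females, and 2166, 2192 and 2198 CPM in natural and 2447, 2274 and 2229 CPM in IVF males. All males exceeded all females, by 1.46-fold in natural and 1.44-fold in IVF animals, but neither difference was called (adjusted p of 0.264 and 0.268 by edgeR's quasi-likelihood test with Benjamini-Hochberg adjustment). By library size alone Mgst1 overlapped between the sexes in both modes of conception. Mgst3 was low, at 4.98 to 18.2 CPM. In the remaining classes, Gstz1, the maleylacetoacetate isomerase of tyrosine breakdown, was among the steadiest members, at 439 to 654 CPM over the 12 livers. Gstk1, an enzyme of mitochondria and peroxisomes, ranged from 37.9 to 181 CPM. Gsto1, which reduces dehydroascorbate and methylated arsenic, had 97.03, 128 and 108 CPM in natural females and 72.3, 55.6 and 67.1 CPM in natural males, without overlap.

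Among the glucuronosyltransferases the 2b subfamily took the most counts, and most of its genes lay higher in males, with 1 of 7 called higher in natural and 3 of 7 in IVF animals, where 0.894% and 0.909% of all genes were. The 7 genes lie on chromosome 5 between 86889767 and 87424203 (GRCm38), and their enzymes act mainly on steroids, bile acids and drugs. The sum of the 7 was 3132, 2373 and 2895 CPM in natural females, 2504, 2770 and 2935 CPM in IVF females, 4287, 4196 and 3856 CPM in natural males and 4941, 4766 and 4769 CPM in IVF males. With TMM scaling, all males lay above all females, at 1.47 times the female mean in natural and 1.76 times in IVF animals. By library size alone the lowest natural male and the highest natural female were nearly equal. The median log2 fold change of the 7 was 0.58 in natural and 0.81 in IVF animals with TMM scaling, and 0.25 and 0.69 by library size alone. In both modes of conception 5 of the 7 did not overlap between the sexes and lay higher in males, where 10.1% of all genes did so in natural and 11.8% in IVF animals, although by library size alone only Ugt2b35 did so in natural animals.

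Ugt2b35 was called in both modes. It had 164, 88.4 and 178 CPM in natural females and 155, 198 and 181 CPM in IVF females. Natural males had 341, 488 and 383 CPM and IVF males 451, 461 and 383 CPM. The gap between the sexes, from 198 to 341 CPM, exceeded the range of the females. The log2 fold change was 1.49 ± 0.26 (SE) in natural and 1.28 ± 0.26 (SE) in IVF animals, with adjusted p of 0.0144 and 0.0247 by edgeR's quasi-likelihood test with Benjamini-Hochberg adjustment. The call in natural animals was lost without natural male replicate 2 and in the fit to only the 6 natural libraries, and that in IVF animals without any 1 of the 6 IVF libraries and by library size alone.

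Ugt2b5, the subfamily's most abundant member at a mean of 533 CPM per kb, had 902, 561 and 736 CPM in natural females and 537, 596 and 753 CPM in IVF females. Natural males had 1140, 1174 and 989 CPM, and IVF males 1611, 1445 and 1442 CPM. With TMM scaling, the order of the groups was without overlap from females to natural males to IVF males. The sex difference in IVF animals was 1.25 ± 0.22 (SE) on the log2 scale with an adjusted p of 0.0118 by edgeR's quasi-likelihood test with Benjamini-Hochberg adjustment, lost only without IVF female replicate 2. In natural animals it was 0.59 ± 0.22 (SE) with an adjusted p of 0.229 in the same edgeR test.

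Ugt2b38, 97.04% identical to Ugt2b5 in its coding sequence, showed the same order, at 232, 102 and 240 CPM in natural and 110, 152 and 188 CPM in IVF females, 316, 283 and 262 CPM in natural males and 440, 365 and 356 CPM in IVF males. Its call in IVF animals, 1.37 ± 0.31 (SE) with an adjusted p of 0.0421 by edgeR's quasi-likelihood test with Benjamini-Hochberg adjustment, was lost in 11 of 12 fits without 1 library, all but the one without natural female replicate 2, and by library size alone. The sum of both genes differed by 1.28 ± 0.24 (SE) with an adjusted p of 0.0155 in edgeR's Benjamini-Hochberg adjusted test.

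Ugt2b1 and Ugt2b36 also lay wholly higher in males in both modes with TMM scaling. Neither was called by edgeR's quasi-likelihood test, while DESeq2 called Ugt2b1 in both modes. Ugt2b1 had a male mean of 783 ± 232 CPM (SD, n = 3) and a female mean of 458 ± 83.6 CPM (SD, n = 3) in natural animals. Ugt2b36 had 661 ± 33.7 CPM (SD, n = 3) in natural males and 476 ± 143 CPM (SD, n = 3) in natural females. Ugt2b34 did not follow the subfamily: it had 765 ± 106 CPM (SD, n = 3) in natural females and 847 ± 137 CPM (SD, n = 3) in natural males. Its log2 fold change was 0.15 ± 0.20 (SE) in natural and 0.11 ± 0.20 (SE) in IVF animals. Ugt2b37 was the lowest of the 7, at a mean of 15.3 CPM per kb, and ranged from 14.7 to 46.9 CPM.

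The 1a subfamily is a single locus on chromosome 1 (88055388 to 88220002), in which each gene has a first exon of its own and all share the remaining exons. Between 50.3% and 82.7% of each gene's exonic bases are shared with others, so levels per length are not compared here, and how shared reads were assigned was not given in the sources used here. Ugt1a5 had 39.5, 67.1 and 103 CPM in natural females and 106, 37.3 and 54.4 CPM in IVF females, against 23.2, 14.4 and 15.7 CPM in natural males and 17.4, 29.2 and 17.0 CPM in IVF males. All females exceeded all males. The difference in natural animals was 3.93-fold, -1.97 ± 0.43 (SE) on the log2 scale, with an adjusted p of 0.0430 by edgeR's quasi-likelihood test with Benjamini-Hochberg adjustment. That call was lost in 8 of 12 fits without 1 library: IVF female replicate 3, IVF male replicate 1 or 3, natural female replicate 2 or 3, or any natural male. It was also lost in the fit to only the 6 natural libraries. In IVF animals the difference was -1.63 ± 0.43 (SE) with an adjusted p of 0.0866 in the same edgeR test, and was called by DESeq2.

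Other genes of the same locus moved differently. Ugt1a6a and Ugt1a6b, whose enzymes act on phenols and whose coding sequences are 98.4% identical, lay higher in all males than in all females with TMM scaling. Ugt1a6a had 59.0, 35.7 and 70.2 CPM in natural females and 79.6, 85.8 and 80.8 CPM in natural males, and neither gene was called. By library size alone both genes overlapped between the sexes in natural animals. Ugt1a1, the enzyme that conjugates bilirubin, had 462, 246 and 567 CPM in natural females and 231, 196 and 240 CPM in natural males, without overlap and with an adjusted p of 0.298 by edgeR's quasi-likelihood test with Benjamini-Hochberg adjustment. In IVF animals it overlapped, at 167, 416 and 328 CPM in females and 242, 259 and 115 CPM in males. Ugt1a9 varied less in females, at 37.0 to 119 CPM, than in males, with 183, 40.6 and 19.6 CPM in natural males and 17.2, 4.92 and 153 CPM in IVF males. Its within-group SD of 1.49 on the log2 scale ranked 32 of 13204 genes, and no other member but Gstp3 exceeded an SD of 0.70. Ugt1a2 and Ugt1a10 passed the filter at means of 0.51 and 1.08 CPM.

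The small subfamilies showed less. Ugt2a3, an enzyme of bile acid conjugation, had between 215 and 414 CPM and overlapped in every comparison. Ugt3a1 and Ugt3a2 are known to use other sugar donors than UDP-glucuronic acid. Ugt3a2 had 428, 378 and 326 CPM in natural females and 302, 259 and 312 CPM in natural males, without overlap, at -0.37 ± 0.19 (SE) on the log2 scale and with an adjusted p of 0.381 by edgeR's quasi-likelihood test with Benjamini-Hochberg adjustment. Ugt3a1 ranged from 76.8 to 168 CPM. The 6 genes that did not pass the filter were Gsto2 with 0 to 17 counts per library, Ugt1a7c with 1 to 9, Gstt4 with 0 to 8, Mgst2 with 0 to 2, Ugt2a2 with 0 or 1 and Ugt2a1 with 0 in all 12 libraries.

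The CPM of each of 10 subfamilies was also summed. A sum does not depend on which member of a subfamily a read was assigned to. It does not correct for reads left uncounted or counted for several genes. With TMM scaling, the pi, microsomal and 2b sums lay wholly higher in males in both modes of conception, and the theta sum wholly lower. By library size alone Mgst1, which makes up nearly all of the microsomal sum, overlapped between the sexes in both modes. The 2b sums of natural males and natural females nearly met under that scaling. For the pi class the male sum was 4.74 times the female sum in natural and 7.07 times in IVF animals, and for the microsomal class 1.45 and 1.44 times. The microsomal sum is nearly all Mgst1: as a mean of log2(CPM + 1) over the class, in which Mgst3 counts as much, the IVF difference turned to -0.068, with Mgst3 at 8.31, 18.2 and 10.2 CPM in IVF females and 7.69, 5.81 and 6.16 CPM in IVF males. Each of these differences gave p = 0.1 in a two-sided exact permutation test, the smallest that 3 libraries against 3 allow, and 0.308 after Benjamini-Hochberg adjustment over the 40 comparisons made. The 3a sum was wholly lower in natural males only, at 0.806 times, and the sum of Gstk1, Gsto1, Gsto2 and Gstz1 in IVF males only, at 0.802 times. For the 3a sum the margin was very small, with the highest natural male at 402.6 CPM and the lowest natural female at 402.7 CPM. The alpha, mu, 1a and 2a sums overlapped between the sexes in both.

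**Figure D4:**
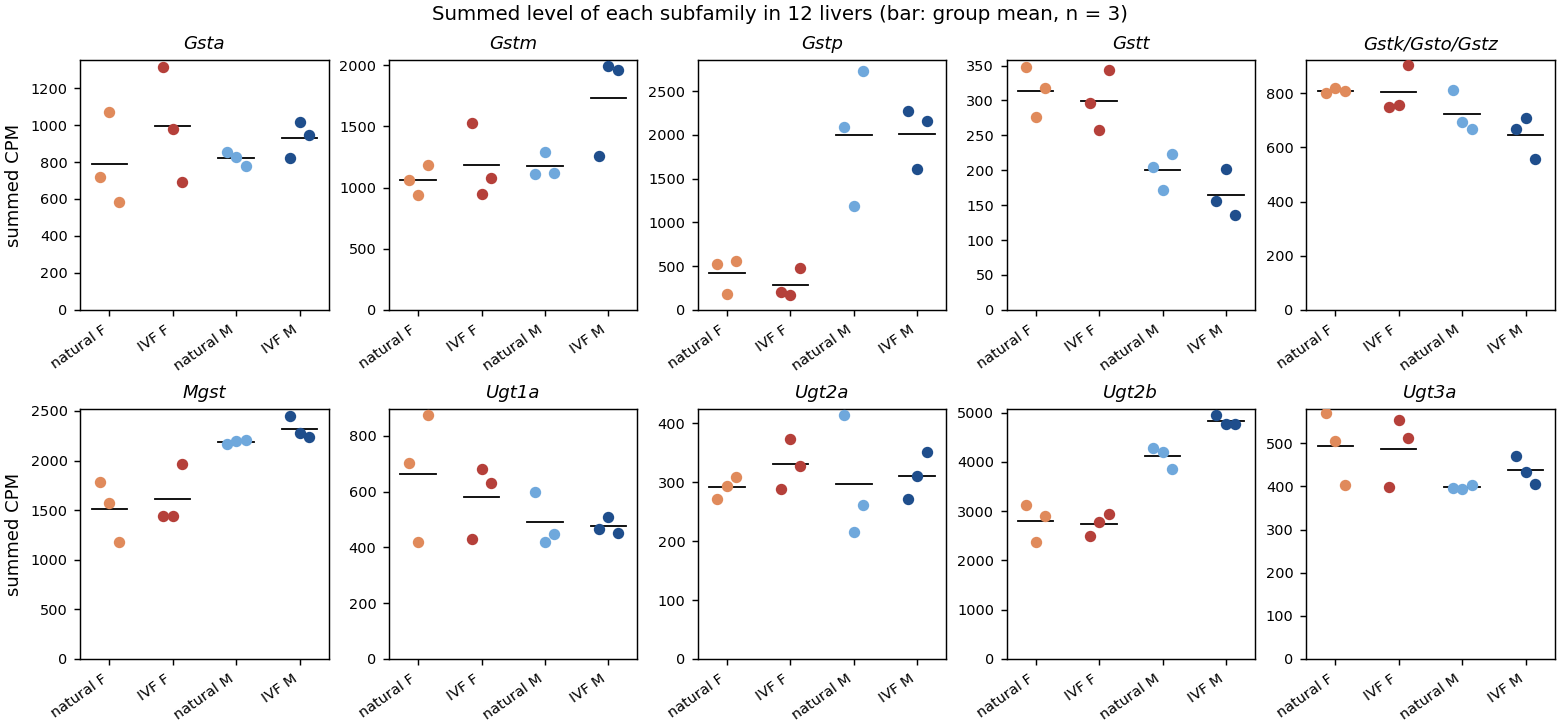
Summed TMM-scaled CPM (linear axes from 0) of the genes of each subfamily, 1 point per liver and a bar at each group mean (n = 3). The pi, microsomal and 2b sums separate males from females upward and the theta sum downward, and IVF males lie above natural males for the microsomal, 2b and 3a sums.

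After IVF no transferase was called in either sex. In females 0 of 39 passed edgeR's quasi-likelihood test with Benjamini-Hochberg adjustment, as did 0% of all genes, and DESeq2's Wald test and limma voom also called 0 of the 39. At an unadjusted p under 0.05 there were 2 of the 39, where all genes gave 3.7%, and libraries did not overlap for 2 of the 39, where all genes gave 7.42%. The smallest unadjusted p belonged to Gstm2, which had 51.4, 51.1 and 37.4 CPM in natural and 88.0, 59.1 and 58.6 CPM in IVF females. The groups did not overlap, at 0.55 ± 0.25 (SE) on the log2 scale (adjusted p = 1 in edgeR's Benjamini-Hochberg adjusted test). Gsto1 had 97.03, 128 and 108 CPM in natural and 97.1, 77.0 and 80.9 CPM in IVF females, which overlapped in 1 liver, at -0.39 ± 0.18 (SE). Ugt2b37, next in order, had 34.1, 22.5 and 40.6 CPM in natural and 14.7, 23.3 and 22.4 CPM in IVF females, at -0.68 ± 0.33 (SE). The other gene without overlap was Gstz1, at 569, 508 and 566 CPM in natural and 572, 585 and 654 CPM in IVF females.

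In males edgeR's Benjamini-Hochberg adjusted test again called 0 of the 39, while 1 of 13204 genes, or 0.00757%, passed, and DESeq2 and limma voom called 0 of the 39 too. At an unadjusted p under 0.05 there were 4 of the 39, where all genes gave 2.69%. These were Gsta1 at 1.81 ± 0.52 (SE), Gsta2 at 1.44 ± 0.49 (SE), Gstm1 at 0.68 ± 0.27 (SE) and Gstt3 at -0.94 ± 0.35 (SE), each with an adjusted p of 1 in edgeR's Benjamini-Hochberg adjusted test. Their values in every male liver are given above: Gsta2 did not overlap, at 31.4, 18.3 and 39.4 CPM after IVF against 15.4, 8.09 and 9.33 CPM, and the other 3 overlapped in 1 liver each.

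Between IVF and natural males 7 of the 39 did not overlap, or 17.9%, against 8.91% of all genes, and all 7 were higher after IVF: Gsta2, Gstm4, Mgst1, Ugt1a6a, Ugt2b5, Ugt2b36 and Ugt2b38. With DESeq2's size factors the same 7 were higher and Gstt3 was wholly lower, and by library size alone, which moved the median of all genes from 0.0098 to 0.14, there were 10 higher and 0 lower, where 13.8% and 1.55% of all genes were. Of the 7, Gstm4 had 67.8, 66.8 and 66.0 CPM in IVF males and 42.6, 61.2 and 55.9 CPM in natural males, and Ugt2b36 had 865, 841 and 746 CPM against 697, 656 and 631 CPM. The 2b sum was 1.17 times as high in IVF males, the 3a sum 1.10 times and the microsomal sum 1.06 times, each without overlap and each at the smallest p of 0.1 (two-sided exact permutation test). For the 3a sum the lowest IVF male had 406.2 CPM and the highest natural male 402.6 CPM. Summed markers of cell types moved with this comparison. Kupffer cell and macrophage markers (8 of 8 tested) summed to 144 to 230 CPM in IVF males and 269 to 305 CPM in natural males, and hepatocyte markers (8 of 8) to 68200 to 75466 CPM in IVF males and 79966 to 92098 CPM in natural males. No defining marker of either list was at 0. Their part in the result was not tested.

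**Figure D5:**
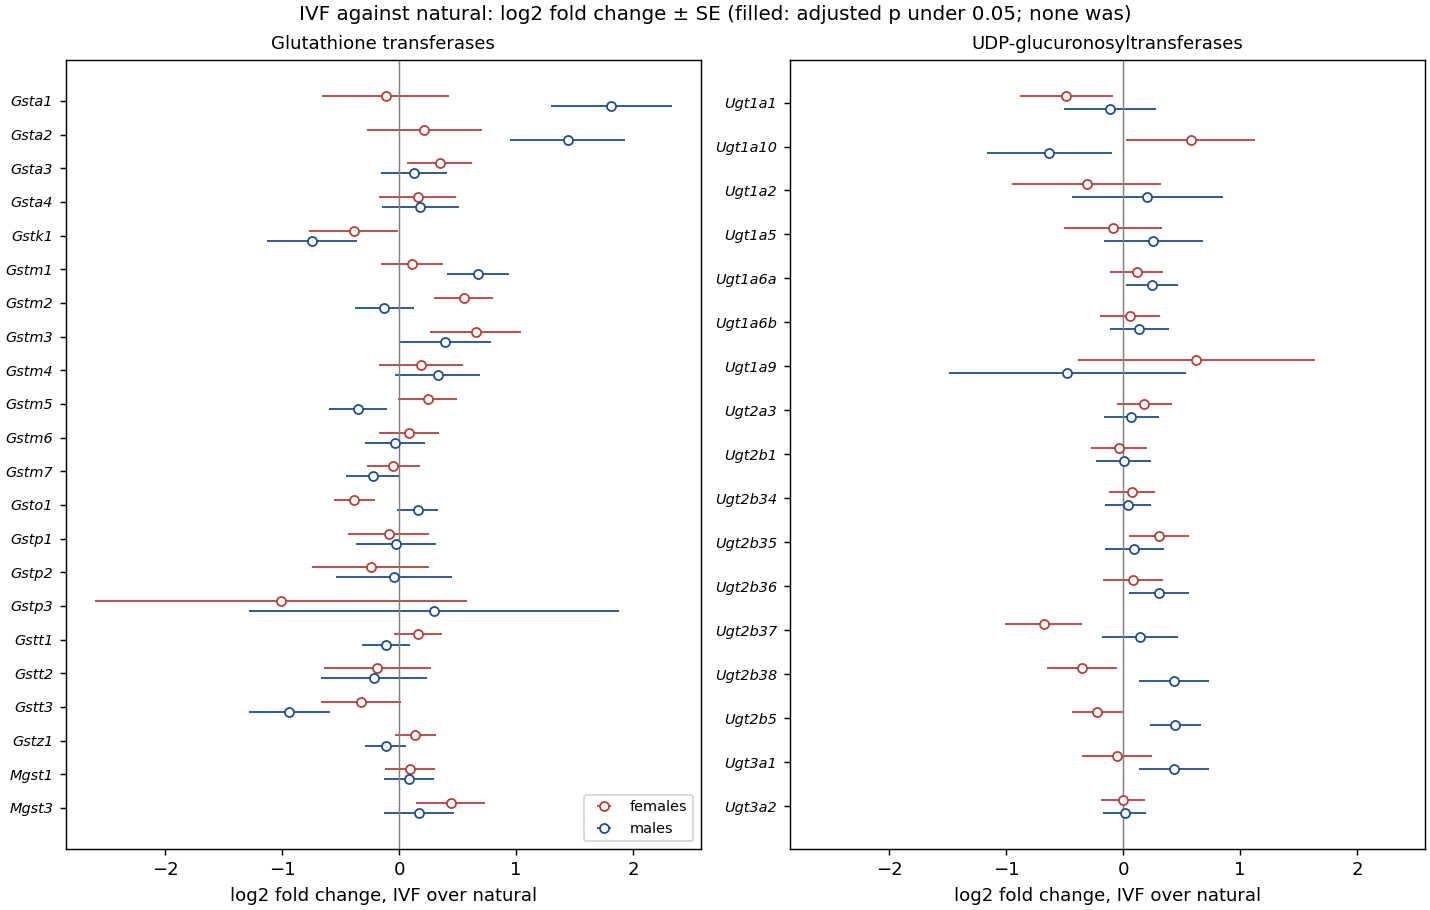
Log2 fold change of IVF over natural animals with its SE, for the 22 glutathione transferases (left) and 17 glucuronosyltransferases (right) tested, in females (red) and males (blue). No point passed an adjusted p of 0.05, and Gsta1 and Gsta2 in males lie farthest to the right.

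Whether IVF acted differently in the sexes was tested as the difference of both IVF effects, which is also the difference of both sex effects. None of the 39 was called, as was 0% of all genes, by edgeR's quasi-likelihood test with Benjamini-Hochberg adjustment, and DESeq2 and limma voom called 0 of the 39 as well. At an unadjusted p under 0.05 there was 1 of the 39, where all genes gave 3.87%. This was Gsta1, at 1.93 ± 0.74 (SE) on the log2 scale, followed by Gsto1 at 0.54 ± 0.25 (SE) and Ugt2b5 at 0.67 ± 0.31 (SE), all with an adjusted p of 0.99993 in that edgeR test. That Gsta1, Gstt3, Ugt2b5 and Ugt2b38 were called between the sexes in IVF animals and not in natural ones, and Ugt1a5 in natural ones and not in IVF animals, is therefore not shown to be a difference between the modes of conception. For Gstp1 the 2 sex differences were 3.50 and 3.57.

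Genes that supply, export or regulate these reactions were counted as lists. Of 20 tested genes of glutathione synthesis and recycling, 6 glutathione peroxidases and related enzymes, 9 genes of UDP-glucuronic acid supply and glucuronide hydrolysis, 18 regulators of drug-metabolising genes and 5 further targets of the aryl hydrocarbon receptor, 0 were called in any of the 5 comparisons by edgeR's quasi-likelihood test with Benjamini-Hochberg adjustment. Their counts at an unadjusted p under 0.05 in natural animals between the sexes were 3, 0, 3, 1 and 2, in that order, and in IVF animals 3, 2, 2, 1 and 1. After IVF these counts were 0, 0, 0, 0 and 1 in females, 0, 1, 0, 0 and 1 in males and 0, 0, 0, 0 and 1 for the difference between the sexes. All genes gave 3.7%, 2.69% and 3.87% in these IVF comparisons. Between the sexes such p were common: in natural animals Mgst3, at an unadjusted p of 0.0512 in edgeR's quasi-likelihood test, ranked 2000 of 13204 genes. In IVF animals Ugt2b37, at an unadjusted p of 0.0536 in that test, ranked 2051. Of the 9 genes of supply and hydrolysis, 7 lay higher in males in either mode, with median log2 fold changes of 0.59 and 0.36, beside -0.024 and 0.0077 over all genes. They include Gusb, which hydrolyses glucuronides, at 0.65 ± 0.24 (SE) and 0.36 ± 0.24 (SE). The members of these lists with the smallest unadjusted p after IVF were Gclc, the catalytic subunit of the first step of glutathione synthesis, with a difference between the IVF effects of 0.79 ± 0.43 (SE), and Gpx3, the plasma glutathione peroxidase, at -1.15 ± 0.37 (SE) in males. Ugdh, which makes UDP-glucuronic acid, stood at 0.44 ± 0.23 (SE) in males after IVF. Between the sexes it had 177 ± 33.3 CPM in natural males and 103 ± 23.3 CPM in natural females (SD, n = 3), with an adjusted p of 0.135 by edgeR's quasi-likelihood test with Benjamini-Hochberg adjustment. After IVF Foxa3, a liver transcription factor, stood at -0.56 ± 0.33 (SE) in males, and Cyp1a2, a cytochrome P450 of the liver, had a difference between the IVF effects of -1.14 ± 0.35 (SE).

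Among 12 transporters of conjugates and organic anions, 1 was called higher and 1 lower in natural males. Of all genes tested, 0.894% were called higher and 0.879% lower in natural males, and 0.909% and 1.28% in IVF males. Abcg2, an efflux pump of the canalicular membrane, had 79.5 ± 28.1 CPM (SD, n = 3) in natural males and 16.0 ± 4.10 CPM (SD, n = 3) in natural females, and Abcc4, an efflux pump of the sinusoidal membrane, 1.60 ± 0.53 and 6.28 ± 1.92 CPM (SD, n = 3). In IVF animals the same 2 were called in the same directions, and Slco1a4, an organic anion uptake carrier, was called lower in males, at 22.2 ± 19.5 against 158 ± 57.8 CPM (SD, n = 3). Of 12 genes of growth hormone signalling and sex-biased transcription, Cux2, Trim24 and Tox, which are known as female-biased transcription regulators of the liver, were called lower in males in both modes. Cux2 had 0.182 ± 0.057 CPM in natural males and 19.9 ± 17.1 CPM in natural females (SD, n = 3), Trim24 16.1 ± 5.09 and 56.0 ± 23.8 CPM, and Tox 2.24 ± 0.187 and 16.7 ± 10.5 CPM. Esr1, estrogen receptor alpha, was called lower in males in IVF animals, at 13.8 ± 3.13 against 70.0 ± 3.79 CPM (SD, n = 3).

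Among 12 further targets of NRF2, the factor that senses electrophiles, Cbr1, a carbonyl reductase, was called lower in males in both modes, at -0.84 ± 0.16 (SE) and -0.92 ± 0.16 (SE) on the log2 scale. Calls lower in males made up 0.879% of all genes in natural and 1.28% in IVF animals, and calls higher 0.894% and 0.909%. Ephx1, the microsomal epoxide hydrolase, was called higher in males in IVF animals, at 712 ± 101 against 273 ± 50.7 CPM (SD, n = 3). Of 13 further targets of the receptors CAR and PXR, Cyp2b9 and Cyp2b13, both known as female-predominant P450 genes, were called lower in males in both modes: Cyp2b9 had 10.1 ± 9.60 CPM in natural males and 498 ± 65.8 CPM in natural females (SD, n = 3). Alas1, the first enzyme of heme synthesis, was called higher in natural males, at 507 ± 139 against 79.4 ± 51.5 CPM (SD, n = 3). Sult1d1, a sulfotransferase, and Papss2, which makes the sulfate donor, were called lower in IVF males, at 87.3 ± 37.7 against 232 ± 13.5 CPM and 122 ± 48.6 against 599.7 ± 335 CPM (SD, n = 3). In the 3 IVF comparisons 0 genes of these 4 lists were called by edgeR's Benjamini-Hochberg adjusted test. At an unadjusted p under 0.05 they had 1, 1, 1 and 1 in females and 1, 1, 4 and 3 in males and 0, 1, 2 and 4 for the difference between the sexes, in the order transporters, growth hormone, NRF2, CAR and PXR. All genes gave 3.7% in females, 2.69% in males and 3.87% for the difference. Median log2 values of that difference were -0.21, 0.20, 0.16 and -0.85 in the same order, beside 0.030 over all genes. Of the 13 CAR and PXR targets 12 lay below 0 and 1 above. Their median log2 fold change after IVF was 0.40 in females and -0.39 in males. No test of a list as a whole was made.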

How the data were processed

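The deposited table held whole read counts for each gene symbol, made by the authors from poly-A selected liver RNA. The submitters' processing notes name Trimmomatic 0.32, STAR 2.3.0e, featureCounts 1.5.0 and the build mm10; strand use and the treatment of reads matching several genes are not given in the sources used here. Counts were tested with edgeR 4.0.16 (R 4.3.3): filterByExpr by group, TMM scaling, 1 quasi-likelihood model over all 12 libraries with a mean per group, Benjamini-Hochberg adjustment over 13204 genes and calls at an adjusted p under 0.05. Each SE was obtained by dividing the log2 fold change by the square root of F. Groups came from the labels, and replicate numbers follow accession order and pair no samples. Libraries of one group differed by at least 80.7 in chi-square per degree of freedom. Members were named where called, by the 3 smallest p in comparisons with fewer than 3 calls, as the subfamily's most abundant, or as not passing the filter. List genes were named where called, or else by the smallest p after IVF. Further genes, Gstp3 and Ugt1a9 among them, were described after their values were seen. The members and lists were chosen with earlier results of these data known. Positions, exonic lengths and coding sequences are from GENCODE M21 (GRCm38). The exonic length of a gene counts all its annotated exon bases, which can exceed the length of any 1 transcript. Ranks per kilobase therefore depend on the annotation: Gsta3 has 4344 exonic bases but a coding sequence of 663. Alternatives were other scalings, filters, thresholds, DESeq2 1.42.0, limma voom (limma 3.58.1), a covariate for the shallow libraries and leaving out libraries. Summing pairs of at least 97% coding identity was added after seeing the data. The model code was tested on simulated data.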

Additional observations from a re-analysis of the deposited data

How the results depend on the processing

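The number of transferases called between the sexes moved with the test and the libraries, while the IVF comparisons and the interaction called 0 under every alternative run. In natural animals (4 called) DESeq2 gave 7, a covariate for the shallow libraries 7 and a fit to the 6 libraries alone 2, and fits without 1 library gave 2 to 5, with 2 reached without natural female replicate 3 or any 1 natural male. In IVF animals (7 called) DESeq2 gave 12, summing near-identical pairs 4 of 35 units, which hold 6 of the 7 genes and not Gsta1, and fits without 1 library 2 to 8, with 2 reached without IVF female replicate 2, 3 without IVF male replicate 3 and 4 without IVF female replicate 1 or 3 or IVF male replicate 1. Gstp1 kept both calls throughout. Some subfamily differences changed sign, among them those of the mu and microsomal sums in IVF animals, which were 0.55 and 0.52 as sums. By library size alone the natural log2 ratio was -0.24 for the alpha, -0.18 for the mu and -0.28 for the 2a sum. As a mean of log2(CPM + 1) over members it was -0.0031 for 2a in natural animals, and in IVF animals 0.92 for alpha, -0.061 for mu, -0.068 for the microsomal and 0.013 for the 3a class. Without 1 library the natural ratio ran from -0.12 to 0.33 for alpha, with -0.013 without natural female replicate 1, and from -0.29 to 0.21 for 2a, with -0.023 without natural female replicate 1, and the IVF ratio from -0.30 to 0.15 for alpha and from -0.18 to 0.013 for 2a, with 0.0035 without IVF male replicate 1. The cause was not tested. No paired analysis was possible because no pair of groups shares more than 1 number in the sample titles. With 3 libraries a group, the exact test of a sum could not fall below p = 0.1, and counts of 0 set only upper limits.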
